A study of Bos taurus with 4 samples.

Results

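Fat that reaches the small intestine is absorbed by enterocytes, the columnar cells that cover the villi. Fatty acids enter these cells with the help of the membrane receptor CD36 and are carried through the cytoplasm by the fatty acid binding proteins FABP1 and FABP2. At the endoplasmic reticulum they are joined again into triglyceride by MOGAT2 and DGAT1, and the microsomal transfer protein MTTP loads the triglyceride onto apolipoprotein B (APOB). The resulting particle, the chylomicron, also carries the apolipoproteins APOA4, APOA1 and APOC3 and leaves the cell towards the lymph. The expression of these 10 genes, which cover the path from uptake to export, is described here in bovine intestinal organoids and in the tissues they were set beside. They were chosen by gene symbol and are 10 of the 28124 symbols in the counts.

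The data are 4 libraries, 1 for each condition, all from healthy Hanwoo cattle, a Korean beef breed, older than 24 months: small intestine (spelled "Bovine Intesine" in the labels), muscle, and intestinal organoids at passage 5 (P5) and passage 10 (P10). The organoids are epithelial structures grown from jejunal crypts that were embedded in Matrigel and kept in IntestiCult medium, and whether both passages and both tissues come from the same animal is not given. The labels do not say which layers of the gut wall the intestine library contains. With 1 library for each condition there is no replicate error, no p-value is given, and the errors printed cover counting error only.

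The libraries held between 12917720 and 17776273 reads on genes, and RN18S1, the row of 18S ribosomal RNA, took 23.7% of the muscle reads against 0.264% to 4.81% in the other libraries. Levels are given as CPM (the count divided by the library total and scaled to a sum of 1e+06) with a 95% Wilson interval. Differences are on the log2 scale after quantile normalisation, which gives all 4 libraries the same distribution of values, and each carries a standard error (SE). Counts under 3 reads were set to 3, and where a library had no read of a gene the difference is a bound that depends on this setting. The labels were checked against markers: the 10 epithelial markers summed to 3178 CPM in intestine, 12600 CPM in P5 organoids, 10350 CPM in P10 organoids and 27.3 CPM in muscle, and none of the 10 was at 0 in either organoid library, whereas the 10 skeletal muscle markers summed to 53600 CPM in muscle and to at most 3.66 CPM elsewhere.

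Together the 10 genes took 3.23% of all reads in intestine (95% interval 3.22% to 3.24%), 0.211% in P5 organoids (0.208% to 0.213%), 0.0271% in P10 organoids (0.0263% to 0.0278%) and 0.0248% in muscle (0.0239% to 0.0256%). Most of the reads in intestine belonged to the 2 cytoplasmic carriers, since FABP1 and FABP2 held 80.0% of the reads of the 10 genes there, 92.1% at P5, 59.7% at P10 and 19.3% in muscle. In bulk RNA, fewer enterocytes and less of each RNA per enterocyte cannot be told apart. The order intestine, P5 organoids, P10 organoids and muscle held for the summed reads, with intervals that did not overlap, but not for every gene, and without RN18S1 in the totals muscle (0.0324%) lay above P10 organoids (0.0271%).

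**Figure D1:**
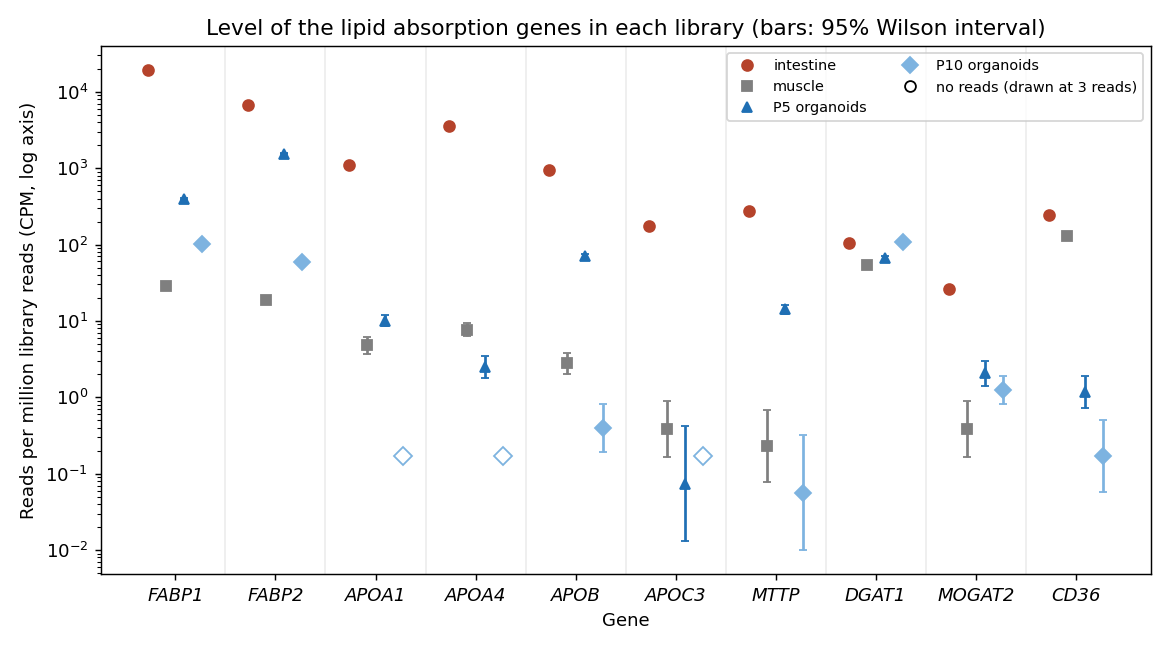
Level in CPM on a log axis for each of the 10 genes in the 4 libraries, with 95% Wilson intervals, and open symbols drawn at 3 reads where a library had none. Intestine was the highest library for all genes but DGAT1, whose 4 values lie between 54.3 and 107 CPM, while P10 organoids had no read of APOA1, APOA4 and APOC3.

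The carriers FABP1 and FABP2 bind long-chain fatty acids in the enterocyte, FABP1 also in hepatocytes, while FABP2 is largely an intestinal protein. FABP1 had 341994 reads in intestine (19240 CPM), 5328 in P5 organoids (392 CPM), 1825 in P10 organoids (103 CPM) and 373 in muscle (28.9 CPM). FABP2 had 117512 reads in intestine (6611 CPM), 21036 in P5 organoids (1547 CPM), 1038 in P10 organoids (58.5 CPM) and 245 in muscle (19.0 CPM). Both genes therefore had the same order of libraries, and no 2 intervals of either gene overlapped, but the steps were of different size. Between intestine and P5 organoids the log2 difference was -5.38 (SE 0.02) for FABP1 and -1.80 (SE 0.01) for FABP2, both lower in organoids. Between P5 and P10 the order was turned around, with -2.03 (SE 0.04) for FABP1 and -5.43 (SE 0.05) for FABP2. Both genes ended near the same distance below intestine at P10, at -7.41 for FABP1 and -7.23 for FABP2.

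The unequal steps can be read within each library, where the scaling between libraries cancels. There were 0.344 FABP2 reads for each FABP1 read in intestine (95% interval 0.341 to 0.346), 3.95 in P5 organoids (3.83 to 4.07), 0.569 in P10 organoids (0.527 to 0.614) and 0.657 in muscle (0.557 to 0.774). The ratio was thus highest in P5 organoids, and the P10 and muscle ratios had overlapping intervals.

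CD36 is a scavenger receptor that takes up long-chain fatty acids in enterocytes and is also expressed in muscle fibres, fat cells, capillary endothelium and macrophages. It had 4394 reads in intestine (247 CPM), 1668 in muscle (129 CPM), 16 in P5 organoids (1.18 CPM, interval 0.724 to 1.91) and 3 in P10 organoids (0.169 CPM, interval 0.0575 to 0.498). Both tissues were high and both organoid libraries were close to the limit of detection. P5 organoids were lower than intestine by a log2 difference of -7.59 (SE 0.37), and the CPM ratio of intestine to P10 organoids was 1461 (exact interval 500 to 7087). The cell types other than enterocytes that express CD36 were also scarce in the organoid libraries. The 10 endothelial markers summed to 73.5 CPM in intestine, 3.68 at P5, 3.44 at P10 and 62.0 in muscle, with 6 of 10 at 0 in P5 and 7 of 10 at 0 in P10. The 9 macrophage markers summed to 643 CPM in intestine, 9.12 at P5, 5.64 at P10 and 67.8 in muscle, with 4 and 6 of 9 at 0 in the organoids. The 8 adipocyte markers summed to 81.6, 9.71, 5.92 and 60.9 CPM in the same order, with 3 of 8 at 0 in P5 and 6 of 8 in P10. The intestine sum was mostly PCK1, which enterocytes also express (64.2 CPM), whereas ADIPOQ, specific to adipocytes, had 1 read in intestine and 198 in muscle. The part of these cell types in the CD36 values was not tested.

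MOGAT2 joins a fatty acid to monoacylglycerol, the entry step of triglyceride re-synthesis in the enterocyte. The counts have 3 rows named MOGAT2, and the RefSeq gene table (assembly ARS-UCD2.0) gives this symbol as an older name of 3 loci on the same chromosome, so reads could be split among them; values are of the row with most reads, as the others held 0 and 2 reads over all libraries. This row had 472 reads in intestine (26.6 CPM), 28 in P5 organoids (2.06 CPM, interval 1.43 to 2.98), 22 in P10 organoids (1.24 CPM, interval 0.819 to 1.88) and 5 in muscle (0.387 CPM). The organoid values were lower than intestine, with log2 differences of -3.48 (SE 0.26) at P5 and -4.01 (SE 0.27) at P10, and did not differ from each other beyond counting error.

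DGAT1 adds the last fatty acid to diacylglycerol and works in many tissues besides the gut. It had 1862 reads in intestine (105 CPM, interval 100.1 to 109.6), 702 in muscle (54.3 CPM), 894 in P5 organoids (65.7 CPM) and 1899 in P10 organoids (107 CPM, interval 102.4 to 112.0). It was the only one of the 10 genes that stayed within 2-fold of intestine in both organoid libraries. The log2 difference from intestine was -0.92 (SE 0.06) at P5 and -0.25 (SE 0.05) at P10, and the latter ranged from -0.25 to 0.03 over the other scalings and settings, so its direction was not settled. Of the 9 genes with more than 3 reads in either organoid library, DGAT1 alone was higher at P10 than at P5, by 0.67 (SE 0.06).

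MTTP transfers triglyceride onto the growing particle and APOB is its structural protein, without which no chylomicron forms. APOB had 16622 reads in intestine (935 CPM), 971 in P5 organoids (71.4 CPM), 36 in muscle (2.79 CPM) and 7 in P10 organoids (0.395 CPM, interval 0.191 to 0.815). MTTP had 4832 reads in intestine (272 CPM), 193 in P5 organoids (14.2 CPM), 3 in muscle and 1 in P10 organoids. The 2 genes thus had the same order of libraries, although for MTTP the muscle and P10 intervals overlapped. P5 organoids were lower than intestine by -4.00 (SE 0.05) for APOB and by -4.47 (SE 0.10) for MTTP. From P5 to P10 APOB was lower by -6.46 (SE 0.35), and the CPM ratio of P5 to P10 for MTTP was 252 (exact interval 44.6 to 9989). Reads of APOB per read of MTTP were 3.44 in intestine (95% interval 3.33 to 3.55) and 5.03 in P5 organoids (4.31 to 5.90), and in P10 organoids and muscle the ratio rested on 1 and 3 MTTP reads.

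APOA4 and APOA1 are the exchangeable apolipoproteins that enterocytes put on chylomicrons, APOA1 being also the main protein of high-density lipoprotein. APOC3 slows the clearance of triglyceride-rich particles from plasma. The genes of all 3 lie next to each other, in the order APOA4, APOC3 and APOA1, in the RefSeq gene table. APOA4 had 63699 reads in intestine (3583 CPM), 99 in muscle (7.66 CPM), 34 in P5 organoids (2.50 CPM) and 0 in P10 organoids. APOA1 had 19846 reads in intestine (1116 CPM), 136 in P5 organoids (interval 8.46 to 11.8 CPM), 62 in muscle (interval 3.74 to 6.15 CPM) and 0 in P10 organoids. APOC3 had 3126 reads in intestine (176 CPM), 5 in muscle (0.387 CPM), 1 at P5 (0.0735 CPM) and 0 at P10. All 3 were therefore highest in intestine and had no read at P10, where a limit of 3 reads for a count of 0 stands at 0.169 CPM and the Wilson upper limit at 0.217 CPM. At P5 APOA1 and APOA4 were still detected, whereas APOC3 rested on 1 read. In CPM the APOA1 interval at P5 was above that of muscle. After quantile normalisation the log2 difference of APOA1 between P5 organoids and muscle was -0.29 (SE 0.22). It ranged from -0.29 to 1.05 over the other scalings and settings, so its direction was not settled.

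At P5, the log2 difference from intestine was -10.37 (SE 0.22) for APOA4 and -6.98 (SE 0.12) for APOA1, and for APOC3 the CPM ratio of intestine to P5 organoids was 2392 (exact interval 429 to 94490). At P10, with 3 reads in place of 0, APOA4, APOA1 and APOC3 were 7733-fold, 2488-fold and 391-fold lower than intestine on the quantile-normalised scale. These values depend on the settings: the smallest log2 differences over the alternatives were -12.28, -10.65 and -7.98. The 3 neighbours did not keep their proportions. There were 3.21 APOA4 reads for each APOA1 read in intestine (95% interval 3.16 to 3.26), 1.60 in muscle (1.15 to 2.23) and 0.25 in P5 organoids (0.166 to 0.366). For APOC3 the corresponding values were 0.158 reads for each APOA1 read in intestine (0.152 to 0.164) and 0.00735 in P5 organoids (0.000185 to 0.0417).

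The question of how close organoids come to the small intestine was then read over all 10 genes at once. In P5 organoids 9 of the 10 were at least 2-fold lower than in intestine and none was at least 2-fold higher, where 20.2% of all rows with at least 50 reads in either library were lower and 20.2% were higher. The median log2 difference of the 10 genes was -4.92, beside 0.07 over all 14060 rows. In P10 organoids 9 of the 10 were lower and none higher, with a background of 23.6% lower and 25.5% higher, and the median was -8.87 beside 0.10 over 14365 rows, genes at or under 3 reads entering at their bound. The filter of 50 reads itself favoured a lower organoid value for genes that reached it only in intestine. At P5 these were APOA4, APOC3, MOGAT2 and CD36. At P10 they were APOA1, APOA4, APOB, APOC3, MTTP, MOGAT2 and CD36. The same 9 genes were lower at both passages, with DGAT1 the exception, but both comparisons share the intestine library. The epithelial markers stood the other way: relative to intestine, P5 organoids had 9 of the 10 at least 2-fold up and P10 organoids 6, with 1 of 10 lower at P10 (KRT20, a marker of differentiated surface cells, -1.17). The summed level of these markers was higher in both organoid libraries than in intestine. At P5 KRT8 held 4168 CPM and KRT19 3855 CPM of the 12600 CPM. VIL1 stayed within 2-fold of intestine, at 0.84 (SE 0.04) at P5 and 0.005 (SE 0.04) at P10. The part of epithelial content in the low values of the 9 genes was not tested. Of the 15 proliferation genes 14 were at least 2-fold higher at P5 and 15 at P10, with medians of 2.62 and 3.39. Their part in the result was not tested.

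Between the 2 passages, 6 of the 10 genes had at least 50 reads in either library, and 5 of these 6 were at least 2-fold lower at P10 (FABP1, FABP2, APOA1, APOB and MTTP). None was at least 2-fold higher. Over all 12735 rows 12.2% were lower and 12.6% higher. APOA1, with 136 reads at P5 and 0 at P10, was 19.7-fold lower with 3 reads in place of 0. The other 4 genes were too sparse to count: APOA4 had 34 and 0 reads, APOC3 1 and 0, MOGAT2 28 and 22, and CD36 16 and 3. Over the 6 genes counted the median log2 difference was -4.54 (-5.08 with CPM), with APOA1 and MTTP at their 3-read bound, beside 0.09 over all rows. APOA1, APOB and MTTP reached 50 reads only at P5, so the filter itself favoured a lower value at P10 for them. Over the 9 genes with a difference, sparse ones included, the median was -2.54, genes at or under 3 reads entering at their bound. Of the epithelial markers 3 of 10 were at least 2-fold lower and 1 was higher at P10, with a median of -0.52. As the passages are 1 library each, passage and the particular culture cannot be told apart.

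Muscle served as the tissue without intestinal epithelium. The intestine library had 8 of the 10 genes at least 2-fold above muscle and none below, beside 30.6% higher and 24.0% lower of all rows. The median log2 difference was 7.37, and 7 of the 8 differences ran from 5.01 (SE 0.59) for MOGAT2 to 8.06 (SE 0.06) for FABP1. For MTTP, the eighth, with 3 reads in muscle, the CPM ratio of intestine to muscle was 1170 (exact interval 400 to 5678). The 2 genes within 2-fold were DGAT1, at 0.20 (SE 0.05), and CD36, at 0.49 (SE 0.04), and both changed direction under other scalings, from -0.23 to 0.95 for DGAT1 and from -0.24 to 0.94 for CD36. Comparisons with muscle depend on the scaling more than the others: with CPM in place of quantile values the median of all rows moved from 0.11 to 1.28 for intestine, from 0.14 to 1.35 for P5 and from 0.25 to 1.54 for P10 organoids, and the share of rows called higher in intestine moved to 56.9%, with 9.71% lower.

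Relative to muscle, the 2 passages of organoids gave different pictures. In P5 organoids 8 of the 10 genes could be counted, of which 4 were at least 2-fold higher and 2 lower, beside 31.6% higher and 24.2% lower of all rows (58.4% and 14.1% with CPM). The 4 were FABP2 at 5.73, MTTP at 4.55, APOB at 3.21 and FABP1 at 2.68, and the 2 lower were APOA4 at -2.68 and CD36 at -7.11. APOA1, at -0.29 (SE 0.22), was within 2-fold, and was 1.05 higher on the log2 scale with CPM. In P10 organoids 6 could be counted, none was at least 2-fold higher and 3 were lower, beside 34.6% higher and 24.6% lower of all rows (61.4% and 14.1% with CPM). The 3 lower genes were APOA1 and APOA4, 24.0-fold and 37.3-fold lower with 3 reads in place of 0, and CD36. For CD36 the CPM ratio of muscle to P10 organoids was 763 (exact interval 261 to 3704). FABP1 at 0.65 and FABP2 at 0.30 stayed within 2-fold of muscle, and with CPM they were 1.83 and 1.62 higher. The comparisons share the muscle library.

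Muscle nevertheless held reads of the enterocyte genes. As a percentage of the intestine reads, muscle had 0.109% for FABP1 (exact interval 0.0983% to 0.121%), 0.208% for FABP2 (0.183% to 0.236%), 0.312% for APOA1 (0.239% to 0.401%), 0.155% for APOA4 (0.126% to 0.189%), 0.217% for APOB (0.152% to 0.300%), 0.160% for APOC3 (0.0519% to 0.374%) and 0.0621% for MTTP (0.0128% to 0.182%). MOGAT2, with 5 muscle reads, was at 1.06% (0.342% to 2.49%). The intervals of FABP1 and FABP2 did not overlap. The 6 other enterocyte genes with at least 1000 intestine reads lay between 0 for MEP1B, with an upper limit of 0.293%, and 2.32% for SI, and pooled to 1.61% (1.40% to 1.85%), above the 7 genes but within the interval of MOGAT2. DGAT1 at 37.7% and CD36 at 38.0% stood far above all of these. Differences from muscle of the 7 genes, and of MOGAT2, are thus differences from a level of 3 to 373 reads whose origin was not tested.

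**Figure D2:**
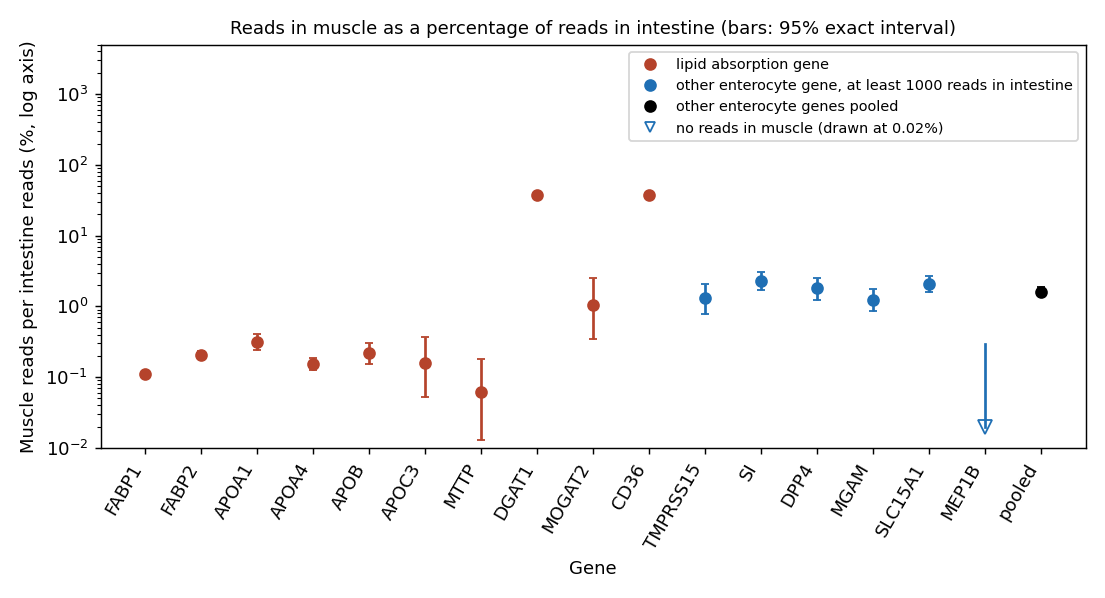
Reads in the muscle library as a percentage of reads in the intestine library, on a log axis with 95% exact intervals, for the 10 genes, for 6 other enterocyte genes and for those 6 pooled. FABP1, FABP2, APOA1, APOA4, APOB, APOC3 and MTTP lie between 0.0621% and 0.312%, and DGAT1 and CD36 near 38%.

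The other genes of the pathway were sorted by role into lists and described by their counts, since with 1 library each no list can be tested. The counts of each list stand beside the shares of all rows relative to intestine. These were 20.2% lower and 20.2% higher at P5, and 23.6% lower and 25.5% higher at P10. Among other apolipoproteins, 6 of 10 rows with enough reads were at least 2-fold lower in P5 organoids than in intestine and 7 of 10 in P10 organoids, with 2 higher at each passage and medians of -2.72 and -2.63. APOE, made by macrophages and many other cells, had 967 reads in intestine, 1 at P5 and 0 at P10, and APOD 1062, 0 and 1. The 2 that were higher at both passages were CLU, encoding the secreted chaperone clusterin, with 3601, 7176 and 15613 reads, and APOO, encoding a mitochondrial protein, with 259, 479 and 682 reads. The list therefore differed within itself, and the macrophage marker sum given above was low in the same organoid libraries as APOE, its part in the result not being tested.

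Fatty acid binding, uptake and activation genes other than the 10 showed 8 of 15 lower and 1 higher at P5, and 10 of 16 lower and 2 higher at P10. SLC27A4, the fatty acid transport protein of the enterocyte, had 811 reads in intestine, 11 at P5 and 89 at P10. It was below intestine by a log2 difference of -5.62 (SE 0.48) at P5, and above P5 by 2.40 (SE 0.49) at P10. The carrier that was higher in organoids was FABP3, the heart and muscle form, with 194 reads in intestine, 1464 at P5, 3647 at P10 and 14332 in muscle. It was 3.27 (SE 0.13) above intestine at P5 and 4.23 (SE 0.12) at P10, opposite in direction to FABP1 and FABP2. FABP4, the adipocyte form, had 32 reads in intestine, 383 in muscle and none in organoids.

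The triglyceride synthesis genes beside MOGAT2 and DGAT1 had 3 higher (27.3%) and 3 lower (27.3%) of 11 at P5, near the 20.2% of all rows in each direction, and 1 higher (3 with CPM) and 3 lower at P10. GPAM and GPAT3, which begin the glycerol phosphate route, were lower in both organoid libraries, GPAT3 by -1.69 (SE 0.06) at P5 and -4.24 (SE 0.10) at P10, while AGPAT2, of the next step, was higher by 3.15 (SE 0.21) and 4.25 (SE 0.21). Lipid droplet and lipolysis genes had 5 of 11 lower and 1 higher (2 with CPM) at P5, and 7 of 14 lower and 4 higher at P10, CIDEC being lower at both passages (223 reads in intestine, 9 and 5 in organoids). CIDEB, which takes part in lipid loading of lipoproteins, had 2826 reads in intestine, 4577 at P5 and 1390 at P10, and was lower at P10 than at P5 by -2.22 (SE 0.05).

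Of the genes of chylomicron assembly and export, 9 of 14 rows were within 2-fold of intestine at P5 and 8 of 14 at P10, beside 8368 of 14060 and 7313 of 14365 over all rows, so these shares were near the background. The medians were -0.35 and -0.42, and the number lower at P5 was 4, and 1 with CPM. TM6SF2, needed for lipid loading of APOB particles, had 8842 reads in intestine, 5684 at P5 and 2924 at P10. It differed from intestine by -0.47 (SE 0.02) at P5 and by -1.83 (SE 0.03), past 2-fold, at P10. P4HB, the protein disulphide isomerase that is the partner subunit of MTTP, had 8606, 7178 and 12865 reads. P4HB was singled out after its values were seen. The lower ones included SEC24D, a coat protein of export vesicles, at -2.02 (SE 0.07) and -2.14 (SE 0.07). APOBEC1, which edits the APOB messenger to its short form, was 2.61 (SE 0.12) above intestine at P5 and had 229, 1119 and 432 reads in intestine, P5 and P10. A1CF, of the same list, went the other way, with 1483, 636 and 237 reads. It differed from intestine by -1.08 (SE 0.07) at P5 and -2.93 (SE 0.09) at P10.

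**Figure D3:**
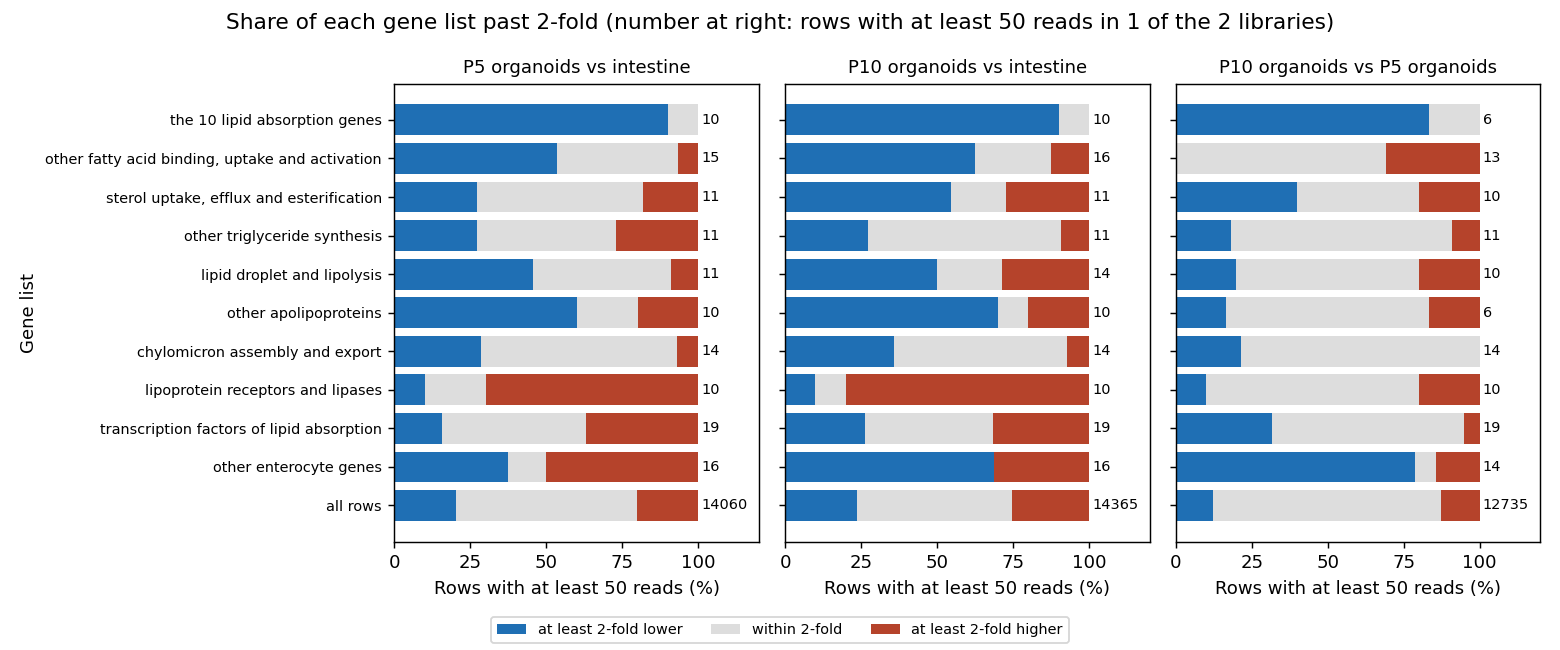
Percentage of rows at least 2-fold lower, within 2-fold and at least 2-fold higher for the 10 genes, 9 wider lists and all rows, in the comparisons of P5 and P10 organoids with intestine and of P10 with P5 organoids. In both comparisons with intestine the 10 genes have the largest lower share of the lists drawn (9 of 10), and the receptors and lipases have the largest higher share.

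Lipoprotein receptors and lipases were mostly higher in organoids, 7 of 10 at P5 and 8 of 10 at P10, with medians of 2.33 and 1.81 and 1 lower at each passage (LIPA, the lysosomal lipase). LRP8, a receptor of the LDL receptor family, had 10 reads in intestine, 658 at P5 and 1416 at P10. LIPG, the endothelial lipase, had 14, 673 and 2036 reads, while the 10 endothelial markers summed to at most 3.68 CPM in the organoids. Of 11 sterol genes, 2 were higher (18.2%, 0 genes under the 4 other scalings) and 3 lower (27.3%) at P5, near the 20.2% of all rows in each direction. At P10 3 were higher (27.3%) and 6 lower (54.5%), beside 25.5% and 23.6% of all rows. SOAT2, which esterifies cholesterol for chylomicrons, had 655 reads in intestine and 0 at P10. SCARB1, a receptor for high-density lipoprotein, was lower at P5 by -4.00 (SE 0.10) and higher at P10 than at P5 by 1.85 (SE 0.11).

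Of the transcription factors that act in lipid absorption, 7 of 19 were higher (36.8%) and 3 lower (15.8%) at P5. Over all rows 20.2% lay in each direction. At P10 6 were higher (31.6%) and 5 lower (26.3%), near the 25.5% and 23.6% of all rows. CREB3L3, a membrane-bound factor known to drive apolipoprotein genes, had 869 reads in intestine, 12 at P5, 7 at P10 and 0 in muscle, with log2 differences from intestine of -5.58 (SE 0.45) and -6.13 (SE 0.35). GATA4, a factor of the proximal small intestine, had 2919, 82 and 88 reads, with -4.88 (SE 0.15) and -5.15 (SE 0.13). HNF4A, a factor of many enterocyte genes, had 1652, 2891 and 4136 reads. The factors were therefore not uniformly low where the 10 genes were. Between passages 6 of 19 were lower at P10 (31.6%) and 1 was higher (5.26%), beside 12.2% and 12.6% of all rows. The largest difference was that of NR1H4, the bile acid receptor, with 1331 reads at P5 and 110 at P10 (-3.87, SE 0.12).

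Enterocyte genes outside lipid handling showed a split at P5 that the 10 genes did not: 8 of 16 were at least 2-fold higher and 6 lower than in intestine, beside 20.2% of all rows in each direction. At P10 5 were higher (3 under the 4 other scalings) and 11 lower, beside 25.5% and 23.6% of all rows, and between passages 11 of 14 were lower at P10 and 2 higher. The aminopeptidase ANPEP had 28104 reads at P5 and 243 at P10, and the amino acid transporter SLC6A19 had 16 in intestine, 18937 at P5 and 628 at P10. The low enzyme genes at P5 included TMPRSS15, enteropeptidase, with 1458 reads in intestine and 17 at P5. As a share, the lower ones were 78.6% of these genes, 83.3% of the 6 lipid absorption genes counted and 12.2% of all rows. Of the 6, APOA1, APOB and MTTP passed the read filter only at P5, with 136, 971 and 193 reads there. At P10 they had 0, 7 and 1 reads, so the filter itself favoured a lower value for them. The 83.3% therefore cannot be weighed against the other shares.

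The genes whose profile over the 4 libraries was closest to 4 of the 10 were found by Euclidean distance between log2 values centred per gene, over 13381 rows with at least 100 reads in any library. For FABP1 these were LOC101902461 and LOC100301422, with nearly the same counts and a distance of 0.451 each, and PCP4 at 0.608. As multiple alignments were counted, the first 2 may share reads (23988 and 24007 in intestine), which was not tested. For MTTP they were APOC2 at 1.03, SOAT2 at 1.20 and LOC100125266 at 1.29, and for CD36 IL6R at 0.618, COL1A2 at 0.627 and WFDC1 at 0.740. For APOA4 the closest were LOC100847119 at 3.22, BOLA-DQA2 at 3.40 and SST at 3.50. The distances used values without the 3-read floor. At P10 a count of 0 stood at a log2 value of 0 and 1 read at 2.09, a gap below the limit of detection. Distances for APOA4, MTTP and CD36, with at most 3 reads at P10, depend on such gaps. The larger distances of APOA4 therefore do not show that it lacked a near neighbour. Likeness over 4 points describes the order and size of the values in these libraries alone.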

How the data were processed

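QuantSeq 3′ mRNA-Seq libraries, which sequence the 3′ ends of polyadenylated RNA from an oligo-dT primer, were made by the authors from total RNA of 4 samples. Reads were aligned with Bowtie2, and unique and multiple alignments were counted with Bedtools, so genes with near-identical copies can share reads. The values the authors deposited are raw counts of reads per gene symbol. The genome build and annotation are not given in the sources used here, and no coordinates or sequences are printed. Library totals ranged from 12917720 to 17776273 reads, which puts the floor of 3 reads at 0.169 to 0.232 CPM.

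Quantile normalisation, the method named in the study, was applied across the 4 libraries to 22200 of 29792 rows, those with a read somewhere, and values were used as log2(value + 1). Counts of 3 or fewer entered as 3 in the differences, but not in the distances between profiles. The SE comes from the 95% Poisson limits of each count. A row entered a comparison if its higher count was 50 or more, and was called at 2-fold. Ratios of counts and percentages of reads have exact intervals and shares Wilson intervals. Reads are not independent molecules, so all cover counting error only. With 1 library per condition no test was run. The 10 genes and the gene lists were chosen with earlier results of these data known. Named are the 10 genes and, from each list and comparison, up to 2 genes with the largest difference in each direction, as well as, for FABP1, APOA4, MTTP and CD36, the 3 genes with the closest profile. Of the 10 symbols, 9 are current in the RefSeq gene table.

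The alternatives were CPM, edgeR TMM and upper quartile, library totals without RN18S1, pseudocounts of 0.1 and 5, other row filters, rows summed by symbol and no floor. The planned description of promoter motifs was not run, as no promoter sequence was used here. The normalisation was tested on simulated data and against limma. Normalisation factors came from edgeR 4.0.16 and limma 3.58.1 in R 4.3.3. Other values were computed with scipy 1.17.1, pandas 2.3.3 and numpy 2.4.6 in Python 3.11.15, and plotted with matplotlib 3.10.9.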

Additional observations from a re-analysis of the deposited data

Results flagged for a closer look

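APOB lay on opposite sides of muscle in the 2 organoid libraries, with a log2 difference of 3.21 (SE 0.27) at P5, from 971 reads against 36, and of -3.25 (SE 0.44) at P10, from 7 reads against 36. Over the alternatives the first ranged from 3.16 to 4.65 and the second from -4.00 to -2.63. The difference between the passages was not tested, since each has 1 library, and both values share the muscle library.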

How the results depend on the processing

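None of the 638 values of a gene's difference under an alternative changed the direction of a called difference. Of these, 520 moved by less than the counting error, but this number pools all settings. Of the 58 values under each setting, 29 moved further with CPM, 24 with TMM, 29 with upper quartile and 28 without RN18S1. Without the floor 8 did, and under the other settings none. The minimum of 10 reads could not move a difference. Of the 132 counts of genes past 2-fold, 129 stayed within 1.5-fold of the value reported. The 3 that did not were the number of genes at least 2-fold higher in P10 organoids than in muscle, which was 0 with quantile values, 2 with CPM and 2 with library totals without RN18S1 (FABP1 and FABP2 in both), and 1 with a minimum of 10 reads in the higher library, a setting chosen after seeing the data. No gene named from the wider lists changed direction between organoids and intestine, or between passages, under the 4 other scalings. Without RN18S1 in the total, the 10 genes took 3.37% of intestine reads, 0.0324% of muscle reads and 0.221% of P5 organoid reads. No paired analysis was possible because each condition has 1 library, and for the same reason no replicate could be left out. Depth limits what can be said of APOA1, APOA4, APOC3, MTTP and CD36 at P10 and of APOC3 at P5, which had at most 3 reads, so that their folds are bounds or wide ratios.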
